A study of Mus musculus with 24 samples.

Results

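Il13ra2, Il13ra1 and Il4ra encode the receptor chains that bind interleukin-13 (IL-13) and interleukin-4 (IL-4), and their RNA was followed in mouse colon fibroblasts on 24 arrays. These 3 genes of the 30748 named genes on the array were chosen by symbol, with the brightest probe set taken for each gene, and each of the 3 had 1 probe set. Il13ra2 was selected on 2 features of these same arrays, a low level after loss of Apc and a wide spread in WT. Its levels are therefore given as a description without a test, and so is the difference between ApcKO and WT for all 3 genes. Il13ra1 and Il4ra were tested in the comparisons that the choice did not use.

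Il4ra is the shared signalling chain of this system: with the common gamma chain it forms a receptor for IL-4 alone, and with Il13ra1 a receptor for both IL-4 and IL-13, which is the form found on fibroblasts. Ligand binding activates the kinases Jak1, Jak2 and Tyk2 and the transcription factor Stat6, which drives chemokine and matrix genes in fibroblasts of mucosal tissue. Il13ra2 binds IL-13 with high affinity, has a short intracellular tail without a kinase-binding site, and is known as a decoy that takes IL-13 away from the signalling receptor.

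The cells were colon fibroblasts sorted as negative for Epcam, CD45 and CD31 and positive for gp38 (podoplanin). All mice carried Villincre-ERT2 and ZsGreen. The Villin promoter is active in intestinal epithelium, so the fibroblasts report on a deletion made in neighbouring cells. The WT group (genotype IhhWT-ApcWT) had 7 arrays, the ApcKO group (IhhWT-ApcKO) 8 and the IhhKO_ApcKO group (IhhKO-ApcKO) 9, so that the comparisons asked what epithelial Apc loss does to the stroma and what further loss of the Hedgehog ligand Ihh adds. Neither the labels nor the design text gives the age or sex of the mice, the time after induction or whether the arrays came from different animals, and p-values therefore measure only the spread between these samples, which may be technical.

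Promoter sequence is shown because the decoy receptor gene and the signalling receptor genes differ in it, independently of any array value. These are the 250 bases before the RefSeq start of each gene (RefSeq sequences, GRCm38.p6), found for 3 of 3 genes: chrX:147429193-147429442 on the minus strand for Il13ra2 (Entrez gene 16165), chrX:36111858-36112107 on the plus strand for Il13ra1 (16164) and chr7:125552021-125552270 on the plus strand for Il4ra (16190). Capitals mark an AP-1 motif, TATAAA and the CCAAT box, which reads ATTGG on the opposite strand.
Il13ra2: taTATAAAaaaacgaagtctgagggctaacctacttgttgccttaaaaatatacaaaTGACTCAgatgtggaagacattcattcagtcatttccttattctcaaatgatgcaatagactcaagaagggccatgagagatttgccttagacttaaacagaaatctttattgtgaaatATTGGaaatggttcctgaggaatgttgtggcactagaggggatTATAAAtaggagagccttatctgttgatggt
Il13ra1: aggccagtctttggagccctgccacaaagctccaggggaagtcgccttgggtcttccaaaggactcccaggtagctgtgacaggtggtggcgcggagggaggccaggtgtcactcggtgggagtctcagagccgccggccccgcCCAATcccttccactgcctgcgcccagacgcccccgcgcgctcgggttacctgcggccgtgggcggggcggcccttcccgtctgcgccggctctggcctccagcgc
Il4ra: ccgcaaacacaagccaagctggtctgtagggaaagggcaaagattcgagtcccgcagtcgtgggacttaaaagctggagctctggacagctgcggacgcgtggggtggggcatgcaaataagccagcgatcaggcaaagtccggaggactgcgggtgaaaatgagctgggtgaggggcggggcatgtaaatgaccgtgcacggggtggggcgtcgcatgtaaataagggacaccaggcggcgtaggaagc

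The Il13ra2 window held 1 CpG at 36% GC, the Il13ra1 window 21 CpGs at 70.8% GC and the Il4ra window 17 CpGs at 59.6% GC. Of 32851 mouse promoter windows of the same length, 7.87% had fewer CpGs than that of Il13ra2, against 83.7% for Il13ra1 and 76.5% for Il4ra. Both strands were searched for 6 motifs, and no match overlapped another. The AP-1 motif TGANTCA (found in 6.75% of all windows) matched 193 bases before the Il13ra2 start. TATAAA (12.4% of windows) matched at 248 and 31 bases before it, and CCAAT (33.8%) at 74 bases. CCAAT also matched 106 bases before the Il13ra1 start. The Stat6 spacing, TTC and GAA with 4 bases between (5.85%), the general Stat spacing, with 3 between (7.02%) and the Gli motif GACCACCCA (0.225%) had no match in these windows, which says only that these letters are not there.

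Levels are log2 values normalized by the authors with RMA, in which 1 unit is a doubling. The medians of the arrays spanned 4.96 to 5.14. Gli1, the transcription factor switched on by Hedgehog signalling, checked the labels: its mean was 8.09 ± 0.08 over the 7 WT arrays, 8.22 ± 0.14 over the 8 ApcKO arrays and 6.92 ± 0.42 over the 9 IhhKO_ApcKO arrays (± SD). The array labelled IhhKO_ApcKO B9 stood apart at 7.99 for Gli1, while the other IhhKO_ApcKO arrays lay at or below 7.05. Xist, the noncoding RNA that coats the inactive X, was over 10 on 2 WT, 3 ApcKO and 6 IhhKO_ApcKO arrays and under 5 on 3, 5 and 3, with WT A1 (7.15) and WT A8 (9.50) between. General fibroblast markers averaged 10.9 in WT, 10.9 in ApcKO and 10.8 in IhhKO_ApcKO (9 of 10 listed genes measured).

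Il13ra2, the decoy receptor, divided the WT arrays. It was at 7.82 on WT A1, 7.35 on A3, 7.15 on A8 and 6.78 on A2, but at 5.40 on A6, 5.15 on A4 and 5.05 on A5. In ApcKO the lowest array was at 4.44, the median 4.77 and the highest 5.65. In IhhKO_ApcKO the lowest array was at 4.75, the median 5.29 and the highest 6.01. So 4 WT arrays stood above all 20 others, with no array between 6.01 and 6.78, while the other 3 WT arrays lay inside the range of the knockout groups.

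The Il13ra2 group means were 6.39 ± 1.15 in WT (SD, n = 7), 4.94 ± 0.42 in ApcKO (n = 8) and 5.33 ± 0.45 in IhhKO_ApcKO (n = 9). ApcKO minus WT was -1.45 log2 units (SE 0.34), a 2.73-fold lower mean. Every SE given here is from the limma model, in which the genotypes share a common estimate of the spread. Where WT arrays spread most widely, as for Il13ra2 and Il13ra1, it understates the uncertainty of differences from WT. All 8 ApcKO arrays lay below the WT mean and 6 lay below every WT array. IhhKO_ApcKO minus WT was -1.05 (SE 0.33), 2.07-fold lower, with 9 of 9 arrays below the WT mean and 3 below every WT array. The means therefore ran from WT to IhhKO_ApcKO to ApcKO in falling order. The neighbours IhhKO_ApcKO and ApcKO lay 0.40 apart (SE 0.32), and their ranges overlapped. With the letter of the sample code as a block, a comparison that rests on IhhKO_ApcKO B9 alone against the ApcKO arrays lettered B, this difference turned to -0.22 and so the order turned too, while IhhKO_ApcKO minus WT was -1.90.

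These Il13ra2 differences were those that led to its choice, so nothing is read from their size. Without WT A1 and A8, the 2 arrays with intermediate Xist, ApcKO minus WT was -1.01 and IhhKO_ApcKO minus WT was -0.61. In bulk RNA of a sorted population, fewer cells that express a gene and less RNA per cell cannot be told apart.

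**Figure D1:**
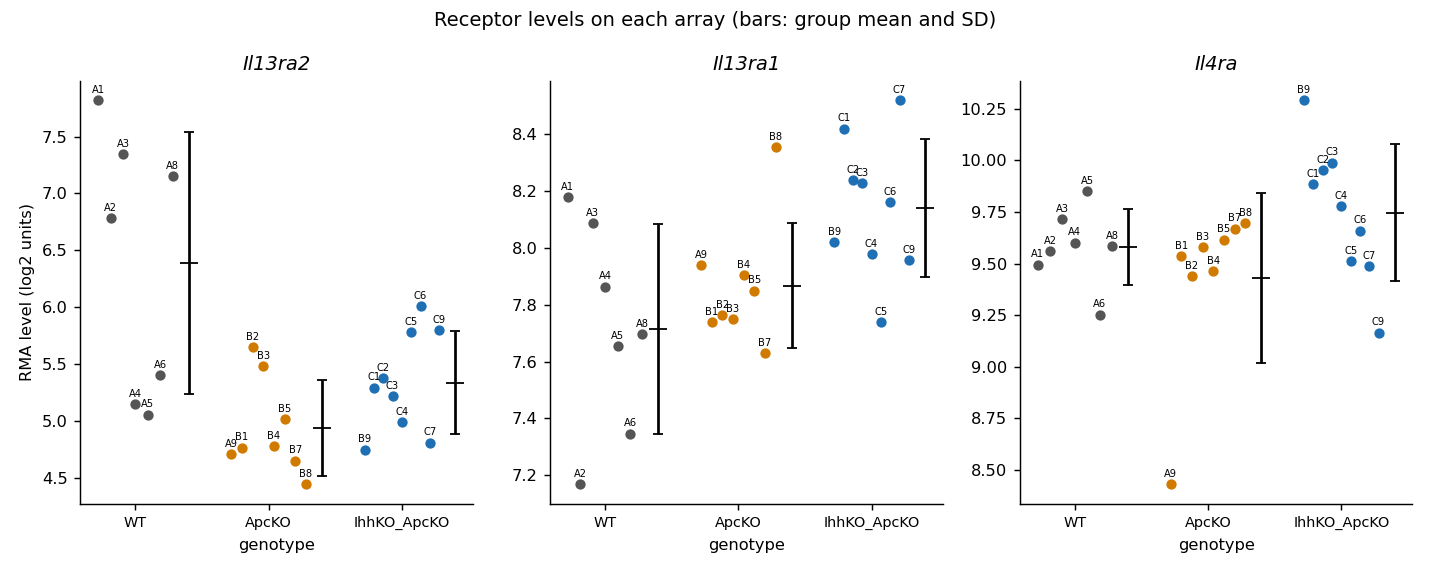
RMA log2 levels of Il13ra2, Il13ra1 and Il4ra (y axes, log2 units, a separate scale for each gene) on every array of the 3 genotypes (x axis); each point is 1 array with its sample code, and the bar beside each group gives the mean and SD. For Il13ra2, 4 WT arrays lie at or above 6.78 and all 20 other arrays at or below 6.01.

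The spread of Il13ra2 was wide in every genotype. Its SD of 1.15 among WT arrays compared with a median SD of 0.145 over all genes, and 27 genes had a larger one. Spread in WT was a reason for its choice, but spread in the knockout groups was not. There the SD was 0.422 in ApcKO, above that of 97.8% of genes, and 0.452 in IhhKO_ApcKO, above 97.5%. Il13ra1 had an SD of 0.368 in WT, above that of 97% of genes, and of 0.220 and 0.243 in ApcKO and IhhKO_ApcKO. Il4ra had its widest spread in ApcKO, with an SD of 0.413, above 97.7% of genes, where 1 array, A9, lay far below the rest.

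Against the array's own controls, Il13ra2 was dim. It lay below the median of the 5222 negative control probe sets (4.47 to 4.76 over the arrays) on 2 ApcKO arrays and on no other array. It lay above the antigenomic background median (2.68 to 3.15) on all 24 arrays, and above the 95th percentile of the negative controls on 0. Levels this close to the controls leave the size of the fold values above uncertain. Il4ra was above the 95th percentile of the negative controls on all 24 arrays, and Il13ra1 on 2 WT, 1 ApcKO and 3 IhhKO_ApcKO arrays.

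Il13ra1, the chain that binds IL-13 first in the signalling receptor, had its highest mean in IhhKO_ApcKO, but the difference did not pass the test. In WT the lowest array was at 7.17, the median 7.70 and the highest 8.18. In ApcKO these were 7.63, 7.81 and 8.35. In IhhKO_ApcKO they were 7.74, 8.16 and 8.52. All 3 ranges overlapped, although 9 of 9 IhhKO_ApcKO arrays lay above the WT mean and 4 above every WT array.

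The Il13ra1 means were 7.71 ± 0.37 (SD, n = 7), 7.87 ± 0.22 (SD, n = 8) and 8.14 ± 0.24 (SD, n = 9) in WT, ApcKO and IhhKO_ApcKO. IhhKO_ApcKO minus WT was 0.43 log2 units (SE 0.13, 95% interval 0.157 to 0.696, 1.34-fold, limma adjusted p = 0.294 over all genes). IhhKO_ApcKO minus ApcKO was 0.27 (SE 0.13, interval 0.014 to 0.534, 1.21-fold, limma adjusted p = 0.968), with 8 of 9 arrays above the ApcKO mean. With the code letter as a block it was 0.165 (limma adjusted p = 0.948). ApcKO minus WT was 0.15 (SE 0.13), untested, and 0.061 without WT A2, 0.091 without WT A6, 0.083 without ApcKO B8, 0.230 without WT A1 and 0.042 with array weights.

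Il4ra, the chain shared by both receptor types, had its highest mean in IhhKO_ApcKO, and its differences did not pass the test. In WT the lowest array was at 9.25, the median 9.58 and the highest 9.85. In ApcKO these were 8.43, 9.56 and 9.70. In IhhKO_ApcKO they were 9.17, 9.78 and 10.29. The lowest value of the 24 was ApcKO A9 and the highest was IhhKO_ApcKO B9, the array whose Gli1 level stood apart. The ranges of all 3 groups overlapped.

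The Il4ra means were 9.58 ± 0.19 in WT (SD, n = 7), 9.43 ± 0.41 in ApcKO (n = 8) and 9.75 ± 0.33 in IhhKO_ApcKO (n = 9). IhhKO_ApcKO minus ApcKO was 0.32 log2 units (SE 0.15, interval 0.012 to 0.624, 1.25-fold, limma adjusted p = 0.983), with 8 of 9 arrays above the ApcKO mean. Without ApcKO A9 this difference was 0.18 (limma adjusted p = 0.952), and the untested ApcKO minus WT difference moved from -0.15 (SE 0.16) to -0.01. IhhKO_ApcKO minus WT was 0.17 (SE 0.15, interval -0.151 to 0.484, limma adjusted p = 0.848), with 6 of 9 arrays above the WT mean, and 0.10 (limma adjusted p = 0.925) without IhhKO_ApcKO B9. With the code letter as a block it turned to -0.43 (limma adjusted p = 0.616), and ApcKO minus WT was -1.15.

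So 0 of the 2 tested receptors passed in either comparison, where limma called 0.0455% of the 30748 genes for IhhKO_ApcKO minus ApcKO (14 genes, 1522 at an unadjusted p under 0.05) and, for IhhKO_ApcKO minus WT, 0.0813% (25 genes, 2347 at an unadjusted p under 0.05). Both tested receptors were under the unadjusted threshold for IhhKO_ApcKO minus ApcKO, and Il13ra1 was for IhhKO_ApcKO minus WT. In ApcKO minus WT, limma called 0% of the genes, with 1356 at an unadjusted p under 0.05. The comparisons share arrays, ApcKO arrays in both that name ApcKO and WT arrays in both that name WT, so their values for a gene are not independent. Missing the threshold does not show that levels were equal: the intervals reach 1.62-fold for Il13ra1 and 1.54-fold for Il4ra.

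**Figure D2:**
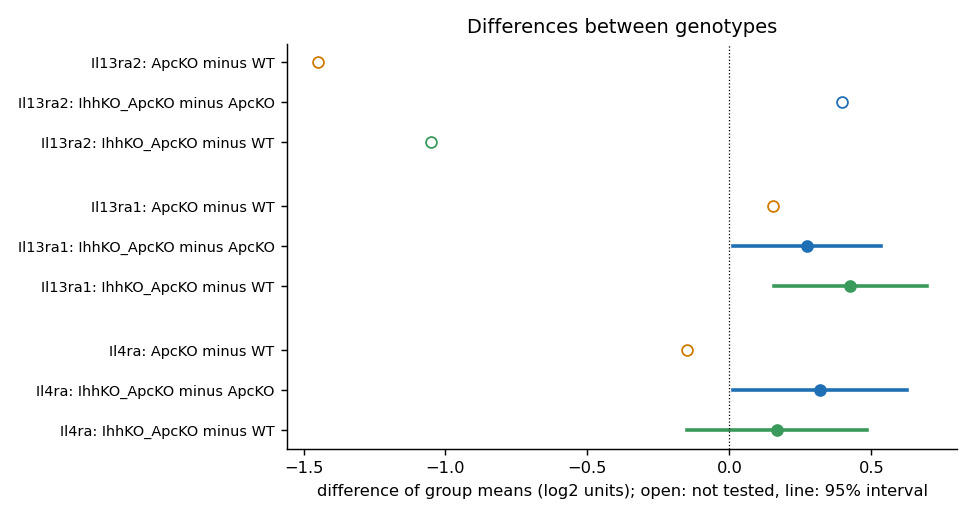
Differences between genotype means in log2 units (x axis) for each receptor and comparison (y axis); filled points are tested differences with the 95% interval of the limma model over all 24 arrays, and open points are differences given without a test. The Il13ra2 differences from WT lie at -1.45 and -1.05, while every Il13ra1 and Il4ra difference lies between -0.15 and 0.43.

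Il13ra2 and Il13ra1 both lie on the X chromosome and Il4ra on chromosome 7, which made Xist a value to set beside them, since the groups held different numbers of arrays with high Xist. Il13ra1 had the higher mean on arrays with high Xist inside each genotype. On arrays with Xist under 5 it averaged 7.39 (n = 3) in WT, 7.75 (n = 5) in ApcKO and 7.91 (n = 3) in IhhKO_ApcKO. On arrays with Xist over 10 it averaged 7.98 (n = 2), 8.07 (n = 3) and 8.26 (n = 6) in the same order. Over all genotypes this was 7.69 ± 0.25 (SD, n = 11) against 8.15 ± 0.22 (SD, n = 11), and the 2 WT arrays between had Il13ra1 at 8.18 and 7.70. The order of the genotypes, WT lowest and IhhKO_ApcKO highest, was the same at low and at high Xist.

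In a limma model with genotype and Xist together, Il13ra1 changed by 0.0573 log2 units per log2 unit of Xist (SE 0.0130). This was rank 29 by p of 30747 genes and did not pass (limma adjusted p = 0.184, with 0.0618% of genes called). With Xist in the model, the Il13ra1 difference of IhhKO_ApcKO was 0.17 from ApcKO and 0.35 from WT. The coefficients were -0.0093 (SE 0.0440) for Il13ra2 and -0.0095 (SE 0.0204) for Il4ra, both with a limma adjusted p of 1. The difference between these coefficients was not tested. The 4 WT arrays with high Il13ra2 were A2 with Xist at 4.74, A3 with Xist at 11.14 and both arrays with intermediate Xist.

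**Figure D3:**
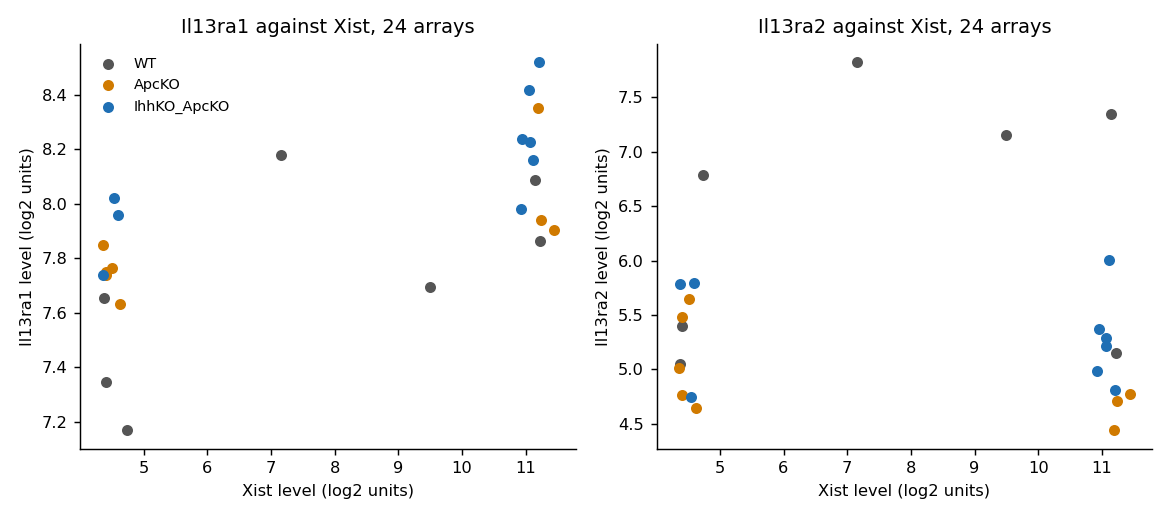
Il13ra1 (left) and Il13ra2 (right) levels against the Xist level, all in RMA log2 units; each point is 1 of the 24 arrays, coloured by genotype. Arrays with Xist over 10 have Il13ra1 between 7.86 and 8.52 and arrays with Xist under 5 between 7.17 and 8.02, while the 4 WT arrays with high Il13ra2 spread along the whole Xist axis.

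No relation between the receptors passed across arrays. Because Il13ra2 fell into separate clusters, its relations were computed over the 20 arrays at or below 6.01. There Pearson's r with Il13ra1 was -0.13 (permutation p = 0.582, adjusted 0.874) and Spearman's rho -0.0662 (permutation p = 0.781, adjusted 0.781). With Il4ra, r was -0.0382 (permutation p = 0.875, adjusted 0.875) and rho -0.179 (permutation p = 0.449, adjusted 0.673). Over all 24 arrays, Il13ra1 and Il4ra had r = 0.236 (permutation p = 0.265, adjusted 0.796) and rho = 0.324 (permutation p = 0.123, adjusted 0.37). Without the 2 arrays farthest from the median these r values were -0.265, 0.0529 and 0.32, and adjustment was over the 3 pairs. Within ApcKO and IhhKO_ApcKO the r values were -0.479 and -0.39 for Il13ra2 with Il13ra1, 0.0903 and -0.545 for Il13ra2 with Il4ra, and -0.0543 and 0.171 for Il13ra1 with Il4ra, which was 0.315 within WT.

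Markers of cells outside the gate varied between arrays. The 16 epithelium markers (16 of 16 measured) averaged 6.95 ± 0.86 in WT (SD, n = 7), 7.53 ± 0.85 in ApcKO (n = 8) and 7.17 ± 0.97 in IhhKO_ApcKO (n = 9), with summed levels of 93.85 to 131.6, 100.4 to 135.5 and 87.53 to 136.8. None of these 16 had a group mean below the negative control median. With their mean as a covariate, Il13ra2 differed by -1.33 for ApcKO minus WT and by -1.01 for IhhKO_ApcKO minus WT, and Il4ra by 0.27 for IhhKO_ApcKO minus ApcKO. Leukocyte markers (11 of 12 measured) summed to 56.69 to 59.62 in WT, 57.52 to 59.76 in ApcKO and 57.55 to 61.78 in IhhKO_ApcKO. Of the 11, 3 had means below the negative control median in every group: Ptprc, which encodes CD45, Itgam and Adgre1. The other measured leukocyte markers were not below it in any group. Markers of mast and type 2 lymphoid cells (10 of 12 measured), the usual sources of IL-4 and IL-13, summed to 45.89 to 47.35, 45.55 to 48.29 and 46.13 to 47.22. Of the 10, 6 were below the negative control median in every group: Cpa3, Ms4a2, Fcer1a, Mcpt1, Mcpt2 and Il7r. Kit, Tpsb2, Rora and Klrg1 were not below it in any group.

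Other marker means were compared in the same way. Blood and lymphatic endothelium was at 5.58 in WT, 5.54 in ApcKO and 5.49 in IhhKO_ApcKO. Enteric glia was at 5.75, 5.67 and 5.69, and smooth muscle with pericytes at 7.19, 7.27 and 7.04. Mesothelium was at 6.18, 6.17 and 6.20, and interstitial cells of Cajal at 6.03, 6.25 and 6.07. Across arrays, 30 relations of the 3 receptors with these marker means and with the array median were computed, and none passed after adjustment (smallest adjusted permutation p 0.57 for Pearson's r and 0.243 for Spearman's rho). Those of Il13ra1 and Il4ra used all 24 arrays. Those of Il13ra2 used only the 20 arrays at or below 6.01. They say nothing about its 4 high WT arrays, which were left out. The largest for Il4ra were r = -0.455 with the array median and r = -0.418 with the epithelium markers, and without the 2 farthest arrays these were -0.542 and -0.299. For Il13ra2, r with the endothelium markers was -0.325, and -0.721 without the 2 farthest arrays. Within ApcKO, Il13ra2 had r = -0.956 with endothelium and -0.908 with enteric glia, against 0.112 and -0.0543 within IhhKO_ApcKO. It also had r = -0.84 with interstitial cells of Cajal, -0.807 with the array median, -0.78 with mesothelium and -0.769 with epithelium within ApcKO. In IhhKO_ApcKO these were 0.199, 0.263, 0.116 and 0.0938. Only general fibroblast markers had a positive r with it within ApcKO (0.308). The within-group values were not tested. With each array centred on its median, Il4ra differed by 0.32 for IhhKO_ApcKO minus ApcKO and by 0.195 for IhhKO_ApcKO minus WT, as large as without centring.

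The wider pathway was read from 75 listed genes, 71 of which were measured here; Il2rg, Jak3, Il1rl1 and Csf2rb were not analysed here. Of the 71, limma called 0 in ApcKO minus WT, 0 in IhhKO_ApcKO minus ApcKO and 0 in IhhKO_ApcKO minus WT, with 4, 10 and 12 at an unadjusted p under 0.05, where 4.41%, 4.95% and 7.63% of all genes were. The signs were 21 positive and 50 negative for ApcKO minus WT (median difference -0.026 log2 units, against -0.021 over all genes). They were 52 and 19 for IhhKO_ApcKO minus ApcKO (median 0.053, against 0.011 over all genes) and 43 and 28 for IhhKO_ApcKO minus WT (median 0.017, against -0.011).

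The ligands stood differently against the array's controls. Il13 lay above the negative control median but below the 95th percentile of the negative controls (8.21 over all arrays). Il4 was at 3.79 ± 0.11 in WT (SD, n = 7), 3.82 ± 0.17 in ApcKO (n = 8) and 3.81 ± 0.21 in IhhKO_ApcKO (n = 9), below the negative control median. Il13 was at 6.06 ± 0.21, 5.93 ± 0.08 and 5.95 ± 0.14 in the same order, with 8 of 8 ApcKO arrays below the WT mean (difference -0.13, SE 0.077, limma adjusted p = 0.97). Of the 5 upstream cytokines that act on type 2 lymphocytes or come from them, Il33, an alarmin made by fibroblasts and epithelium, had the largest difference, 0.24 (SE 0.19, limma adjusted p = 0.97) for ApcKO minus WT, from 8.57 ± 0.48 to 8.81 ± 0.33. The 5 had 2 positive and 3 negative signs in that comparison and a median of -0.067.

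Below the receptors, none of the kinases passed the test, nor did Stat6. Jak1 averaged 10.001 in WT, 10.007 in ApcKO and 9.984 in IhhKO_ApcKO, Jak2 7.17, 7.11 and 7.19, Tyk2 6.86, 6.81 and 6.82, and Stat6 8.29, 8.27 and 8.33. Among the 8 measured kinases, STATs and adaptors, Irs1, the insulin receptor substrate that Il4ra also engages, had the largest difference: 7.95 ± 0.27 in ApcKO and 7.59 ± 0.31 in IhhKO_ApcKO, which is -0.35 (SE 0.13, limma adjusted p = 0.697), with 9 of 9 arrays below the ApcKO mean. Pik3r1, the regulatory subunit of PI3 kinase, was at 0.11 (SE 0.071) for ApcKO minus WT (limma adjusted p = 0.97), and the list was split evenly, 4 positive and 4 negative, in both comparisons of IhhKO_ApcKO.

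The inhibitors of the signal did not pass either. Socs1, the suppressor of cytokine signalling that blocks Jak kinases, was at 7.10 ± 0.13 in WT (SD, n = 7), 6.94 ± 0.11 in ApcKO (n = 8) and 6.93 ± 0.14 in IhhKO_ApcKO (n = 9). Its difference from WT was -0.16 (SE 0.067, limma adjusted p = 0.97) in ApcKO, lower than the WT mean in 8 of 8 arrays, and -0.17 (SE 0.065, limma adjusted p = 0.489) in IhhKO_ApcKO, lower in 8 of 9. Ptpn1, a phosphatase, was at 0.21 (SE 0.090, limma adjusted p = 0.918) for IhhKO_ApcKO minus ApcKO, above the ApcKO mean in 9 of 9 arrays. Among the partners of Il13ra2, Tmem219, its coreceptor for the chitinase-like protein Chil1, was at -0.16 (SE 0.048, limma adjusted p = 0.245) for IhhKO_ApcKO minus WT, lower in 9 of 9 arrays. Chil1 itself was at 0.20 (SE 0.11, limma adjusted p = 1) for IhhKO_ApcKO minus ApcKO.

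Of 23 genes known to respond to IL-4 or IL-13, 4 had a positive and 19 a negative difference for ApcKO minus WT (median -0.055), 17 and 6 for IhhKO_ApcKO minus ApcKO (median 0.091) and 13 and 10 for IhhKO_ApcKO minus WT (median 0.009), with 2, 3 and 5 of the 23 at an unadjusted p under 0.05, against the shares of all genes given above. Ccl8, a chemokine, was at 8.09 ± 0.76 in WT (SD, n = 7), 7.23 ± 0.31 in ApcKO (n = 8) and 7.48 ± 0.39 in IhhKO_ApcKO (n = 9). The differences were -0.85 (SE 0.24, limma adjusted p = 0.97) for ApcKO and -0.60 (SE 0.23, limma adjusted p = 0.509) for IhhKO_ApcKO against WT, with 8 of 8 and 9 of 9 arrays below the WT mean. WT arrays spread most widely for Ccl8 too, so these SEs, from the shared estimate, understate the uncertainty. Ccl7, a related chemokine, was at 0.42 (SE 0.17, limma adjusted p = 0.824) for IhhKO_ApcKO minus ApcKO, above the ApcKO mean in 8 of 9 arrays. Ccl11, the eotaxin that IL-13 induces in fibroblasts, was added after its values were seen, with differences of -0.01, 0.11 and 0.11 in the 3 comparisons (SE 0.12 for each).

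Lox, which cross-links collagen, was also named after its values were seen, since it had the smallest adjusted p among the pathway genes. It was at 0.33 (SE 0.083, limma adjusted p = 0.219) for IhhKO_ApcKO minus ApcKO and 0.38 (SE 0.086, limma adjusted p = 0.104) for IhhKO_ApcKO minus WT. Without IhhKO_ApcKO C4 it rose in both, by 0.39 (SE 0.069, limma adjusted p = 0.0283) and 0.44 (SE 0.072, limma adjusted p = 0.0112), and with Xist as a covariate in the second, by 0.41 (SE 0.081, limma adjusted p = 0.0494). Of the 35 alternatives run for each comparison, Lox passed in no other. Among 14 receptors for TNF, IL-17 and IL-1 and genes of activated fibroblasts, 13 had a positive and 1 a negative difference for IhhKO_ApcKO minus ApcKO (median 0.104, against 0.011 over all genes). The signs were also 13 and 1 for IhhKO_ApcKO minus WT (median 0.103, against -0.011), which shares the same IhhKO_ApcKO arrays and is not a second line of support. For ApcKO minus WT they were 5 and 9. At an unadjusted p under 0.05 were 3, 4 and 0 of the 14 in this order, and none passed after adjustment. The 1 with a negative sign, Fap, a surface protease of activated fibroblasts, also had the largest difference: -0.28 (SE 0.12, limma adjusted p = 0.918) against ApcKO and -0.41 (SE 0.13, limma adjusted p = 0.288) against WT, where 9 of 9 arrays lay below the WT mean. Other receptors of the gamma-chain and short-chain families (9 of 11 measured) had medians of -0.031, 0.028 and -0.017, with Il15ra at 0.12 (SE 0.070, limma adjusted p = 0.737) for IhhKO_ApcKO minus WT. Il5ra had the largest difference of this list in the other comparisons, but lay below the negative control median in every group (3.29 in WT, 3.18 in ApcKO and 3.27 in IhhKO_ApcKO), so no difference is given.

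**Figure D4:**
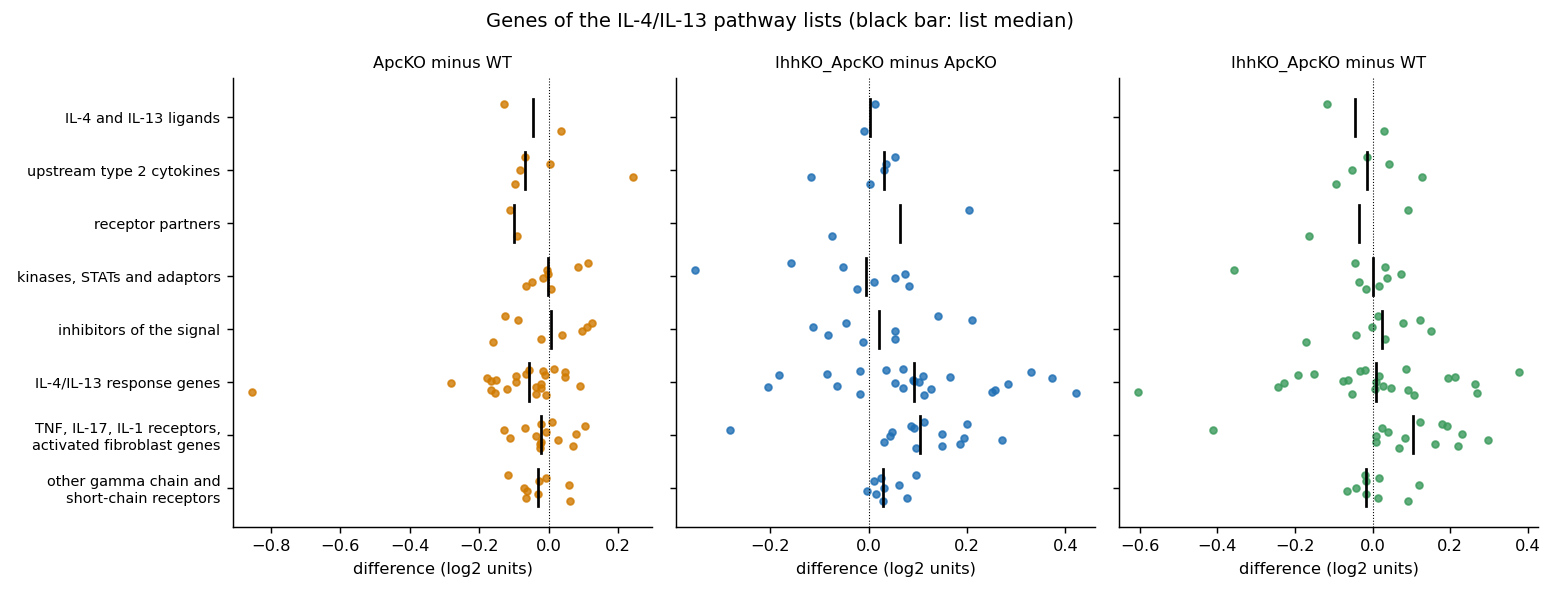
Differences in log2 units (x axes) of the 71 measured pathway genes, each a point, grouped by list (y axis) for the 3 comparisons; black bars are list medians and the dotted line marks 0. The Ccl8 point at -0.85 for ApcKO minus WT and -0.60 for IhhKO_ApcKO minus WT lies apart from the other response genes, and no point passed the test.

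Genes whose pattern was most like that of Il13ra2 were ranked by Pearson's r over the 24 arrays among the 15374 genes in the brighter part of the array. This is a description, since the 4 high WT arrays weigh heavily in it and all values share the same arrays. Ccl8 ranked first (r = 0.784, rho = 0.497) and was above all 20 other arrays on each of the same 4 WT arrays, at 8.81 on A1, 8.17 on A2, 8.65 on A3 and 8.95 on A8. Over the 20 other arrays, however, its r was 0.161. Tmigd1, an immunoglobulin-domain protein of the cell surface (r = 0.735), was above all others on 3 of the 4 and had r = 0.134 over the 20. It was at 7.60 ± 0.65 in WT, 6.64 ± 0.29 in ApcKO and 6.41 ± 0.44 in IhhKO_ApcKO. Its IhhKO_ApcKO minus WT difference of -1.19 (SE 0.22, limma adjusted p = 0.0216) was among the 25 called. Against ApcKO it was -0.23 (SE 0.21). Likeness to Il13ra2 favours genes high on the same WT arrays, so this pass is not independent of how Tmigd1 was picked. Twist1, a transcription factor of mesenchymal cells (r = 0.689), was above on 3 and had r = 0.296 over the 20.

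For the complement gene C4a, r was 0.741 over 24 arrays, 0.820 with group means taken out and 0.683 over the 20 arrays without the 4 high ones, and C4b followed at 0.712, 0.812 and 0.650. C4a averaged 9.20 ± 0.24 in WT (SD, n = 7), 9.004 ± 0.159 in ApcKO (n = 8) and 9.22 ± 0.18 in IhhKO_ApcKO (n = 9), and was above all others on 1 of the 4 WT arrays. C4a and C4b are near-identical neighbours whose probe sets may share signal, so their separate values are uncertain. Cdh22, a cadherin, kept r = 0.621 over the 20 arrays (0.707 over 24). With group means taken out, r was 0.602 for Cdh22, 0.651 for Ccl8, 0.598 for Tmigd1 and 0.557 for Twist1.

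At the opposite end were Ube2c, a ubiquitin-conjugating enzyme of mitosis (r = -0.767, and -0.517 over the 20 arrays), the histone H2aj (r = -0.725, and 0.034 over the 20) and the filamin-binding protein Rflnb (r = -0.720, and -0.522). Ube2c was at 6.03 on WT A1, 6.26 on A2, 6.18 on A3 and 6.14 on A8, against 6.46, 6.47 and 6.44 on A4, A5 and A6. By the same rule the genes most like Il13ra1 were Ddx3x, an X-linked RNA helicase that escapes X inactivation (r = 0.725), Bysl, of ribosome assembly (0.725), and Nme1, a nucleoside diphosphate kinase (0.716). Among those most like Il4ra were Gpx4, which reduces lipid peroxides (r = 0.835), and Dctn4, a dynactin subunit (0.798). With group means taken out these were 0.651, 0.640 and 0.590 for Il13ra1 and 0.820 and 0.823 for Il4ra.

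**Figure D5:**
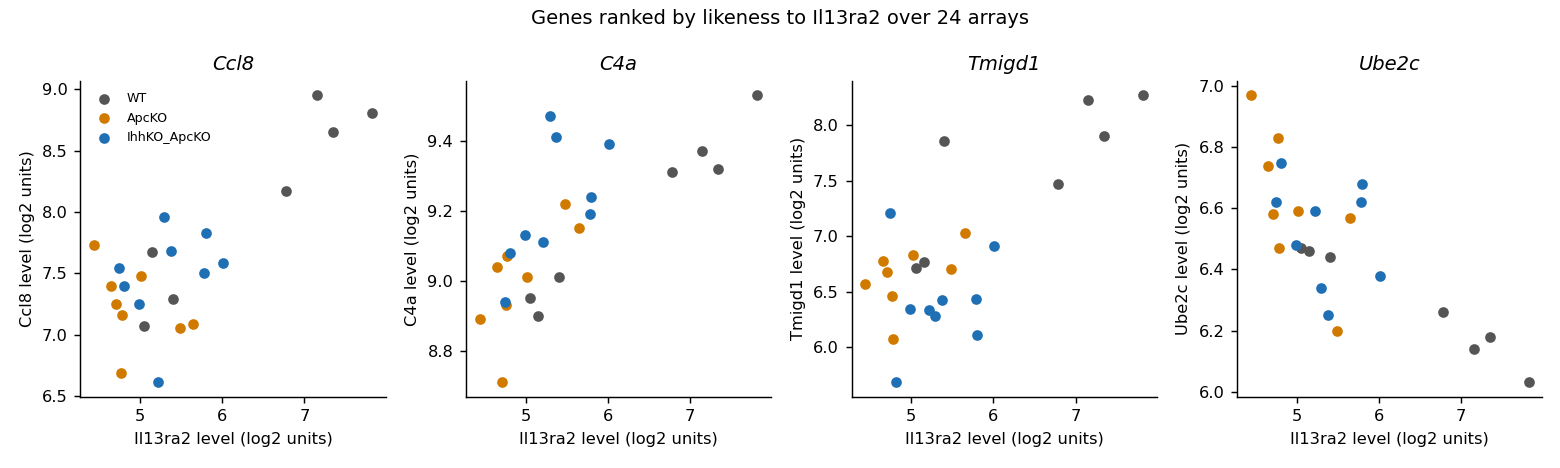
Levels of Ccl8, C4a, Tmigd1 and Ube2c (y axes) against Il13ra2 (x axes), all in RMA log2 units; each point is 1 of the 24 arrays, coloured by genotype. The 4 WT arrays with Il13ra2 at or above 6.78 have the highest Ccl8 of all arrays, whereas C4a rises with Il13ra2 among the other 20 arrays as well (r = 0.683).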

How the data were processed

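RNA from sorted fibroblasts was amplified from a small amount with a 3' IVT pico kit and hybridized to GeneChip Mouse Transcriptome Array 1.0, 1 array per sample, per the labels' protocols. Values were deposited by the authors on the log2 scale after RMA, per the submitters' processing notes. RMA fits background and quantile-normalizes all arrays together, so differences are relative to the other genes; its software is not given in the sources used here, nor is the genome build.

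Of 72688 probe sets, 6732 controls were left out. Of the 65956 others, 31221 named 1 gene (617 through several spellings), 1529 several genes and 33206 none. Symbols were updated through Entrez identifiers for 1088. For 364 genes with several probe sets the brightest was used. No dim gene was filtered out. Precision is limited by the number of arrays, which give no counts. No pair of arrays was identical.

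All 30748 genes were fitted with limma 3.58.1 (lmFit, eBayes) in R 4.3.3, with 24 arrays in 1 model and Benjamini-Hochberg adjustment at 0.05. The script was tested on simulated data. Correlations used 100000 permutations, two-sided. The members, gene lists, tests and rules were chosen with earlier results of these data known. Named genes were the receptors, their ligands, kinases, Stat6 and Socs1, the gene with the largest difference per list and comparison, and the 6 highest and 3 lowest (Il13ra2) or 3 highest correlations. 1 gene of the last group is not reported here. Alternatives were centring, array weights, covariates (Xist, epithelium or leukocyte markers), the code letter as a block, robust fits, a filter, probe set means and left-out arrays.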

Additional observations from a re-analysis of the deposited data

Results flagged for a closer look

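In 63 groups of 7 to 9 arrays, 8 values stood apart from the rest of their group, by the ratio of their gap to the group's range; chance alone marks about 1 in 20 groups. Among the receptors, Il4ra was lowest on ApcKO A9 at 8.43, with the next ApcKO array at 9.44, and Il13ra1 was highest on ApcKO B8 at 8.35, with the next at 7.94.

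Of the pathway genes, 4 stood apart on the same array, IhhKO_ApcKO C9: Chil1 was highest there at 6.22 (next 5.51), Il4 highest at 4.32 (next 3.88), Il5ra highest at 3.49 (next 3.32) and Irs1 lowest at 6.89 (next 7.40). Jak2 was highest on IhhKO_ApcKO B9 at 7.63, with the next array at 7.29. Stat6 was lowest on WT A4 at 7.99, with the next at 8.28. C9 also had the highest antigenomic background median (3.153, the others at most 2.919), the highest 95th percentile of the negative controls (8.462) and the highest means of epithelium (8.551) and endothelium (6.002) markers. Il4 and Il5ra lay below its negative control median of 4.596. The part of these properties in the values was not tested.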

How the results depend on the processing

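Both tested receptors stayed short of the threshold under all 35 alternatives run on each: limma adjusted p ranged from 0.536 to 1 (Il13ra1) and 0.214 to 1 (Il4ra) for IhhKO_ApcKO minus ApcKO, and from 0.178 to 0.768 and 0.616 to 0.999 for IhhKO_ApcKO minus WT. Leaving out 1 array, Il13ra2 ranged from -1.67 (WT A5 out) to -1.21 (WT A1 out) for ApcKO minus WT. The code letter separates from genotype only through ApcKO A9 and IhhKO_ApcKO B9. With it as a block, Il4ra was -0.43 for IhhKO_ApcKO minus WT (turned in sign, limma adjusted p = 0.616) and -1.15 for ApcKO minus WT, and Il13ra2 was -1.90 for IhhKO_ApcKO minus WT and -0.22 for IhhKO_ApcKO minus ApcKO (turned in sign). The r of Il13ra2 with Il4ra turned to 0.034 with each array centred and 0.053 without the 2 farthest arrays. The cause was not tested.

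Counts of all genes called for IhhKO_ApcKO minus ApcKO were 8 with centring, 23 among the brighter genes (fewer tested), 65 with array weights, 51 with the letter block, and 8 (C6 out) to 41 (B9 out) without 1 array. For IhhKO_ApcKO minus WT they were 16 with centring, 45 with weights, 82 with the block, 7 with only the arrays of both groups, 11 without WT A1 and A8, and 12 (A5 or A6 out) to 67 (B9 out). For ApcKO minus WT the block gave 113. Pathway genes called were 1 (Ptpn1), 2 and 2 (Arg1 and Serpinb2, the latter at 3.36 against ApcKO on the contrast that rests on B9) with the block, 1 with Xist as a covariate (IhhKO_ApcKO minus WT), and 0 to 1 without 1 array in both comparisons of IhhKO_ApcKO. Il13ra2 is not among the brighter genes, so that filter gave it no value. No paired analysis was possible because the groups share no replicate numbers.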
